A study of Xenopus tropicalis with 12 samples.

Results

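The genes described here were expressed at middling to high levels in the larval intestine of wild-type Xenopus tropicalis, lower there at the climax of metamorphosis, and already lower before metamorphosis in tadpoles without thyroid hormone receptors (TR). They number 62 of the 19921 Ensembl gene IDs in the deposited counts. They were chosen from the counts themselves, after each library was divided by its median-of-ratios size factor, which gives the normalised read count. A gene was a member when its wild-type mean at stage 54 was at least 100, its wild-type mean at stage 61 was at least 8 times lower, its TRDKO mean at stage 54 was at least 4 times lower, and its TRDKO mean at stage 61 was less than 2 times the TRDKO mean at stage 54. The differences named in this rule are therefore properties of the selection and are given below as description.

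Whole intestine was sequenced from TRDKO tadpoles (TRα-/- TRβ-/-, no functional TR gene) and wild-type tadpoles (TRα+/+ TRβ+/+) at stage 61, the climax of metamorphosis, and at stage 54, before its onset. Each genotype and stage had 3 libraries, 12 in all, which the study calls biological replicates. Its sequencing methods do not say whether tissue of several animals was pooled, while RNA for its PCR assays, extracted with the same kit, came from combined tissue of several animals. The TRDKO tadpoles came from parents without an intact TRα gene, so the wild-type tadpoles were not their siblings, and clutch and genotype cannot be told apart. The study used 2 TRDKO lines with different deletions in TRβ and does not say which gave the sequenced RNA.

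Thyroid hormone (T3) drives frog metamorphosis through TRs, which are known from work in Xenopus to repress T3-inducible genes when no hormone is bound and to activate them when it is. In the intestine, T3 brings the death of the larval epithelium and the appearance of adult epithelial stem cells, which later form the folded adult epithelium. A larval gene can therefore fall during climax because its product is no longer made or because the cells that made it are gone. In RNA from whole intestine, fewer cells of a type and less RNA per cell cannot be told apart.

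The counts carry Ensembl IDs only, and 0 of these IDs matched the RefSeq gene table for assembly UCB_Xtro_10.0. No source used here gives these IDs a gene name, so no function is given to any member, and the TR genes and the markers of intestinal cell types were not examined here. Total counts ranged from 20112705 to 37936503 per library. The limit that 0 reads allow, 3 reads, corresponded to a normalised read count of 1.57 to 5.87 and covers counting error only. Libraries of a group correlated at 0.995 to 0.997 (log2 scale, across genes, which are not independent replicates) in 10 of the 12 pairs. The other 2 pairs, both with TRDKO stage 54 replicate 3, correlated at 0.927 and 0.929, and the levels that rest on that library are given below with and without it. In the 10 pairs the median squared difference per gene was 1.17 to 1.87 times that of sampling noise alone, and 1.10 to 2.68 times over the members. Over all genes these libraries thus differed by little more than counting error, and over the members by more than that in some pairs. In the other 2 pairs the median squared difference was 27.6 and 31.0 times that of sampling noise, and 109 and 129 times over the members. Where p-values are given, they measure the spread between these libraries, which may in part be technical.

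The 62 genes spanned a wide range of abundance. Their wild-type means at stage 54 ran from 100.3 to 158891 normalised counts, with a median of 3262. In 20 genes this mean was 10000 or more, in 29 it lay between 1000 and 10000, and in 13 it was under 1000. Of the 100 most abundant genes of wild-type intestine at stage 54, 6 were members, and none of the 10 most abundant was. In wild-type libraries at stage 54 the members had a median coefficient of variation of 2.31% over the 3 libraries.

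**Figure D1:**
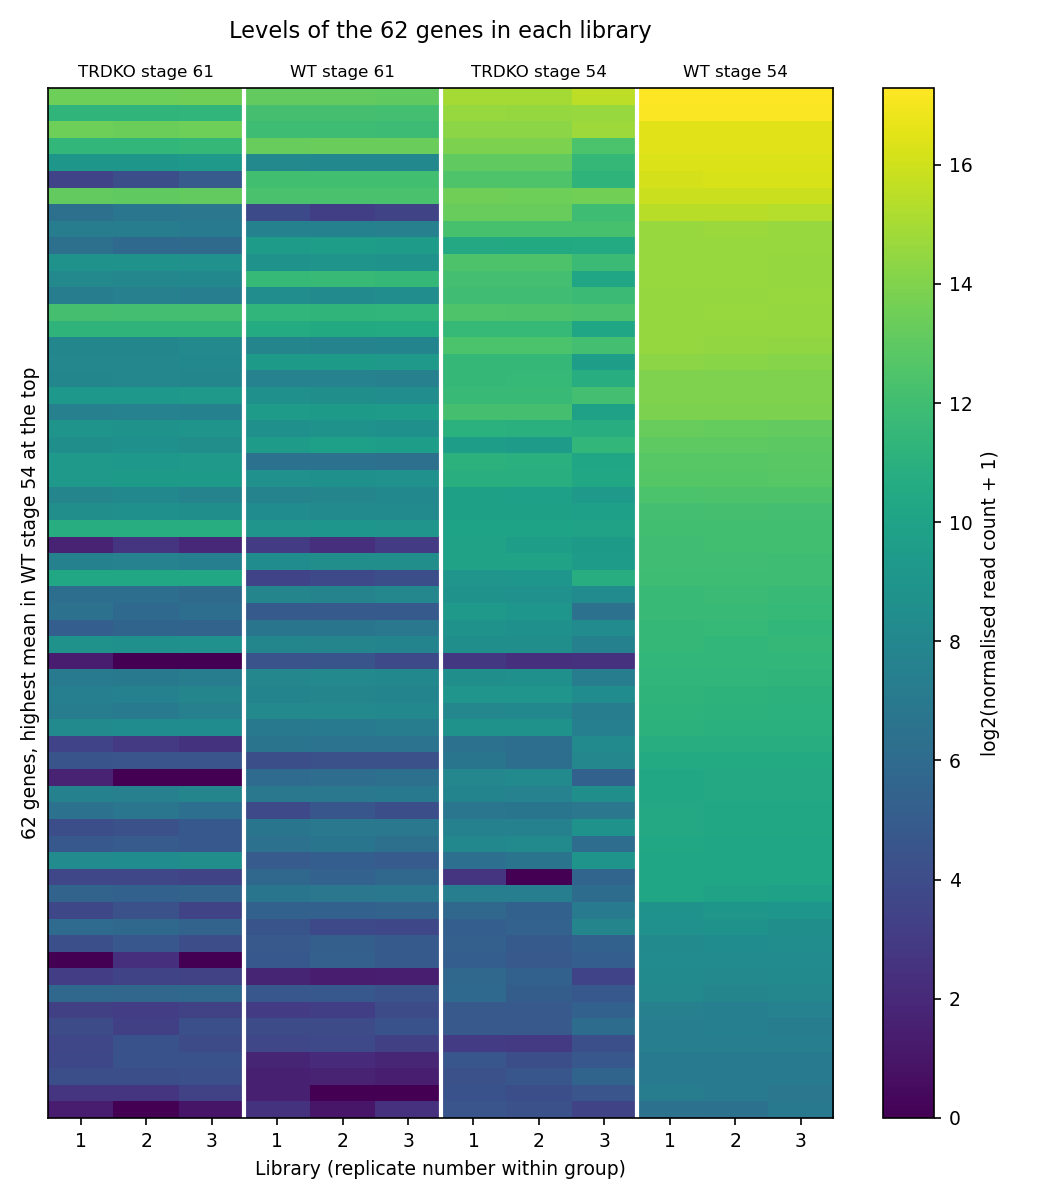
Levels of the 62 genes in the 12 libraries, as log2 of the normalised read count plus 1 (colour), with 1 row per gene ordered by the wild-type mean at stage 54 and 1 column per library. The wild-type stage 54 libraries are the brightest in every row, as the rule requires, and TRDKO stage 54 replicate 3 differs from replicates 1 and 2 in many rows.

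Together the 62 genes took a share of the reads that differed between all 4 groups. They held 0.198%, 0.197% and 0.201% of all counts in TRDKO libraries at stage 61, against 0.303%, 0.310% and 0.300% in wild-type libraries at that stage. At stage 54 they held 0.703%, 0.700% and 0.623% in TRDKO libraries, against 2.69%, 2.68% and 2.66% in wild-type libraries. The groups did not overlap. The rule itself largely set the wild-type stage 54 libraries above the other groups. The 400 other genes that met both wild-type limits, described below, also differed between all 4 groups without overlap. They held on average 7.32% in TRDKO and 3.06% in wild-type libraries at stage 61, and 17.8% and 23.6% at stage 54. All these raw shares are not normalised, and for the members the order of the genotypes at stage 61 depended on the scaling. As normalised counts, the members summed to 55568 ± 488 in TRDKO and 53863 ± 662 in wild-type libraries at stage 61 (SD, n = 3 each), while at stage 54 they summed to 188803 ± 7472 in TRDKO libraries, or 193103 on average in replicates 1 and 2, and 1122919 ± 4005 in wild-type libraries (SD, n = 3 each). The 3 highest members made up 56.5% of the sum in TRDKO and 44.8% in wild-type tadpoles at stage 61.

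**Figure D2:**
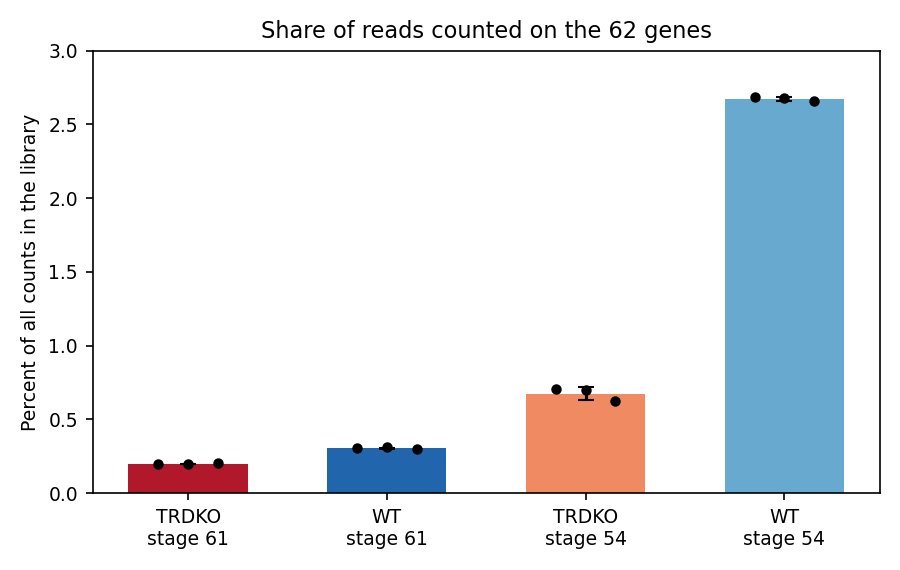
Share of all counts of a library that fell on the 62 genes, in percent, by group. Bars are means with the SD of 3 libraries, and points are single libraries. The wild-type libraries at stage 54 lie at 2.66% to 2.69%, and every other library lies at or below 0.703%, a gap largely set by the rule.

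At stage 54 the TRDKO means of the members ranged from 0.171% to 24.99% of the wild-type means, with a median of 16.3% and quartiles of 11.9% and 20.5%. By replicates 1 and 2 alone the median was 16.1%. In 9 members the TRDKO mean was under 10% of the wild-type mean, and in 14 by replicates 1 and 2 alone. All 62 were called lower in TRDKO tadpoles at this stage by edgeR's quasi-likelihood test (more than 2-fold at a Benjamini-Hochberg adjusted p, or FDR, under 0.05), as were 12% of the 13954 genes tested. The rule used this contrast, so nothing is read from the count. The median differed little with abundance, but the limit of 25% left it little room to differ. It was 17.4% of wild type in the 20 genes at 10000 or more normalised counts, 17.1% in the 29 genes between 1000 and 10000, and 15.2% in the 13 genes below 1000. By replicates 1 and 2 alone these medians were 18.8%, 15.7% and 14.2%.

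The limit of 25% did not mark a gap. The members nearest to it had TRDKO means of 24.6%, 24.8% and 24.99% of wild type, and the nearest genes that failed at this limit alone had 25.1%, 25.1% and 25.3%. Just inside the limit on the wild-type mean at stage 61 lay 12.3%, 12.4% and 12.49% of the stage 54 mean, and just outside lay 13.0%, 13.4% and 13.6%. The lowest wild-type means at stage 54 among members were 100.3, 133 and 137, and the highest among genes that failed at that limit alone were 99.99, 78.8 and 72.0. In all, 3 genes failed at the TRDKO stage 61 limit alone, with TRDKO means 2.23, 3.35 and 4.15 times higher at stage 61 than at stage 54, while the highest members had 1.48, 1.54 and 1.67 times.

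The number of members depended strongly on the scaling of the libraries. The size factors were 0.511 to 0.741 in wild-type libraries at stage 54 and 0.762 to 1.91 in the others, and scaling by library size alone gave 14 genes that met the rule, all of them among the 62. With TMM-scaled library sizes 57 genes met it, again all among the 62. A limit of W54/3 on the TRDKO mean at stage 54, where W54 is the wild-type mean at that stage, gave 116 genes, and a limit of W54/6 gave 32.

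For TRDKO stage 54 the rule was also applied with each library left out in turn, and the chosen genes were read in that library. The wild-type stage 54 mean that served the choice was also the reference here, so the reading is not independent of the choice. Replicates 1 and 2 also differed by little more than counting error (correlation 0.996), so a choice made with 1 of them bears on the value read in the other. With replicate 1 left out of the rule, 60 genes met it, and 50 of them were at or under 25% of the wild-type mean in replicate 1. With replicate 2 left out, 52 of 62 genes were at or under 25% in replicate 2. With replicate 3 left out, 43 of 67 genes were at or under 25% in replicate 3, where the highest reached 63.3%. In each case every gene was below the wild-type mean in the library left out, and the median level there was 17.5%, 16.5% and 17.2% of wild type for replicates 1, 2 and 3.

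TRDKO stage 54 replicate 3 differed from the other libraries of its group in both directions. Against the mean of replicates 1 and 2 it was more than 1.5-fold lower in 23 of the 62 genes and more than 1.5-fold higher in 14, and it lay within 1.5-fold in 25. Replicates 1 and 2 lay within 1.5-fold of each other in 59. Among the 12900 genes with a TRDKO stage 54 mean of at least 10 normalised counts, replicate 3 was more than 1.5-fold lower in 18.4% and more than 1.5-fold higher in 17.6%. The members' levels stayed under those of wild type in each of the 3 libraries, which the limit of 25% on their mean already required or nearly so. By replicates 1 and 2 alone, 57 of the 62 were at or under 25% of wild type. With replicate 3 left out the rule gave 67 genes, of which 53 were among the 62. Of the 9 genes lost, 5 exceeded the limit at stage 54 and 4 exceeded the limit at stage 61.

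**Figure D3:**
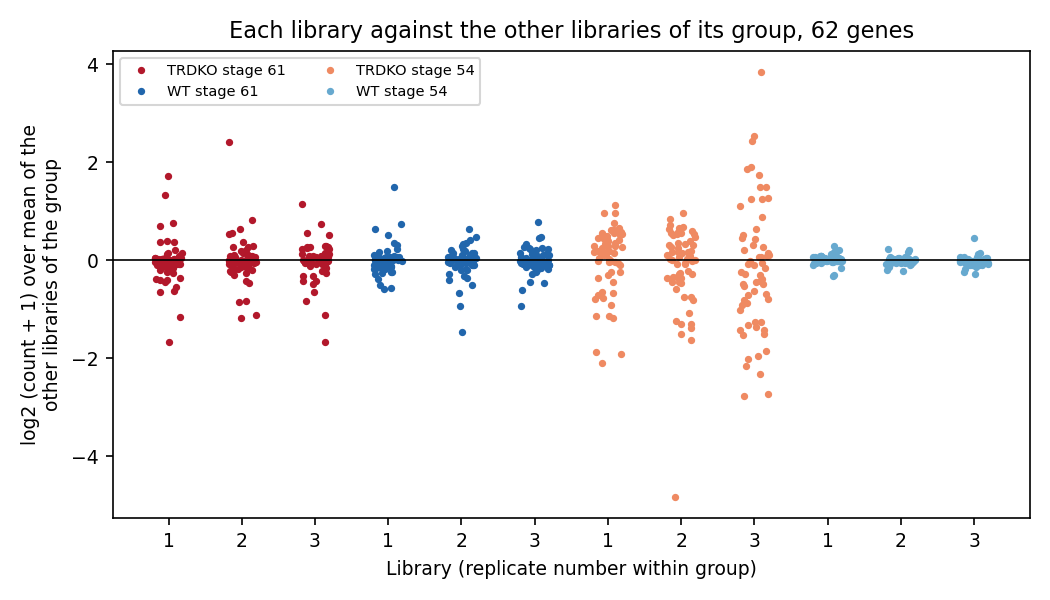
Each library against the mean of the other 2 libraries of its group, as a log2 ratio of normalised read counts plus 1, with 1 point per gene for the 62 genes. Many points of TRDKO stage 54 replicate 3 lie away from 0, with 23 genes more than 1.5-fold below and 14 more than 1.5-fold above the mean of replicates 1 and 2.

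In wild-type tadpoles the members fell at stage 61 to a median of 5.03% of their stage 54 level, with quartiles of 1.52% and 8.72%. In 10 genes less than 1% was left. All 62 were called lower at stage 61 than at stage 54, against 21.2% of all genes tested, a contrast that the rule used. In most members the TRDKO mean at stage 54 was above this level. The rule favoured this order. It allowed up to 25% of the wild-type stage 54 mean in TRDKO tadpoles at stage 54, but only 12.5% in wild-type tadpoles at stage 61. The TRDKO mean at stage 54 was above the wild-type mean at stage 61 in 58 of the 62 genes, by a median factor of 2.96 over all 62. Every TRDKO library at stage 54 lay above every wild-type library at stage 61 in 44 genes, and below every one in 1. In 17 genes the 2 means were within 2-fold of each other. By replicates 1 and 2 alone the TRDKO mean was above in 56 genes, by a median factor of 2.97, and the means were within 2-fold in 19. Both of these libraries lay above every wild-type one in 53 genes and below every one in 4. The rule bounded both groups, and the lack of overlap was not counted over all genes, so nothing is read from these counts.

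In TRDKO tadpoles most members fell further between the stages, although the rule would have let them rise to just under 2 times their stage 54 level. The TRDKO mean at stage 61 was at most 50% of that at stage 54 in 44 of the 62 genes and at most 10% of it in 17. It lay between 50% and the full stage 54 level in 12 genes and above it in 6. Against replicates 1 and 2 of stage 54 alone, these counts were 41 genes at 50% or less, 19 of them at 10% or less, 13 between 50% and the full level, and 8 above it. By the edgeR test 44 members were lower at stage 61 and 0 were higher, beside 12% lower and 12.5% higher of all genes tested. The rule barred rises of 2-fold or more in the means, which limits the higher calls. Of the 400 other genes that met both wild-type limits, described below, 66.5% were called lower and 2.25% higher, beside 71.0% and 0% of the members. The fall was thus not particular to the members. Refitted without replicate 3, the test called 41 members lower and 4 higher, beside 13.9% and 15.01% of the 14200 genes tested there. At stage 61 the members stood at a median of 4.21% of the wild-type stage 54 level in TRDKO tadpoles and of 5.03% in wild-type tadpoles.

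The contrast between TRDKO and wild-type tadpoles at stage 61 is the one between single groups at the same stage, or of the same genotype, on which the rule set no limit. The rule held both groups low relative to wild type at stage 54, but did not fix which of them was lower. Of the wild-type stage 54 mean, it allowed 12.5% in wild type at stage 61, but up to just under 50% in TRDKO tadpoles. This left more room for TRDKO tadpoles to be the higher group, so the calls in each direction are given as description. Of the 62 genes, 15 were higher and 19 were lower at stage 61 in TRDKO tadpoles than in wild type (edgeR's quasi-likelihood test, FDR under 0.05 and more than 2-fold). Among all 13954 genes tested, 14.1% were called higher and 20.1% lower, and among the members these shares were 24.2% and 30.6%. With no fold limit 23 members were higher and 25 lower, beside 30.8% and 39.4% of all genes tested. The libraries of the 2 genotypes did not overlap in any of the 34 genes called. This was not counted over all genes called, so nothing about the members is read from it. The median log2 fold change was -0.08 over the members and -0.11 over all genes tested. The members were spread more widely, with quartiles of -1.40 and 1.03, against -0.82 and 0.52 for all genes tested. A wide spread was not particular to the members. As ratios of TRDKO to wild-type means at stage 61, the quartiles were 0.384 and 2.08 over the members. Over the 400 other genes that met both wild-type limits, they were 2.02 and 7.98. The sign of the members' median was not stable, at 0.02 without wild-type stage 61 replicate 2 and 0.18 without replicate 3. The split also moved with the scaling. On library size alone, 9 members were higher and 26 lower, but 6.78% of all genes tested were then higher and 39.0% lower, with a median of -0.75, so the shift was shared with all genes.

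Of the 28 members that were not called, 14 differed at an FDR under 0.05 by less than 2-fold, and 14 did not pass the FDR. Their log2 fold changes ranged from -1.72 to 1.30, with standard errors from 0.04 to 0.82. For the least precise of them a change of more than 2-fold is not excluded by this fit. The standard errors rest on a spread shared over all 12 libraries, TRDKO stage 54 replicate 3 among them, and not on stage 61 alone. In 1 member not called (FDR 0.091, edgeR), the stage 61 normalised counts were 85.6, 57.9 and 73.6 in TRDKO and 28.5, 29.3 and 29.1 in wild-type libraries. Refitted without replicate 3 of TRDKO stage 54, the test called 16 of the 62 higher and 20 lower, beside 14.9% and 20.7% of all genes tested. With the rule and the test both run without TRDKO stage 54 replicate 3, 19 of 67 genes were higher and 20 were lower, beside 14.9% and 20.7% of the 14200 genes tested there. Of the 15 genes called higher, 11 were still members under that choice, and of the 19 called lower, 17 were.

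**Figure D4:**
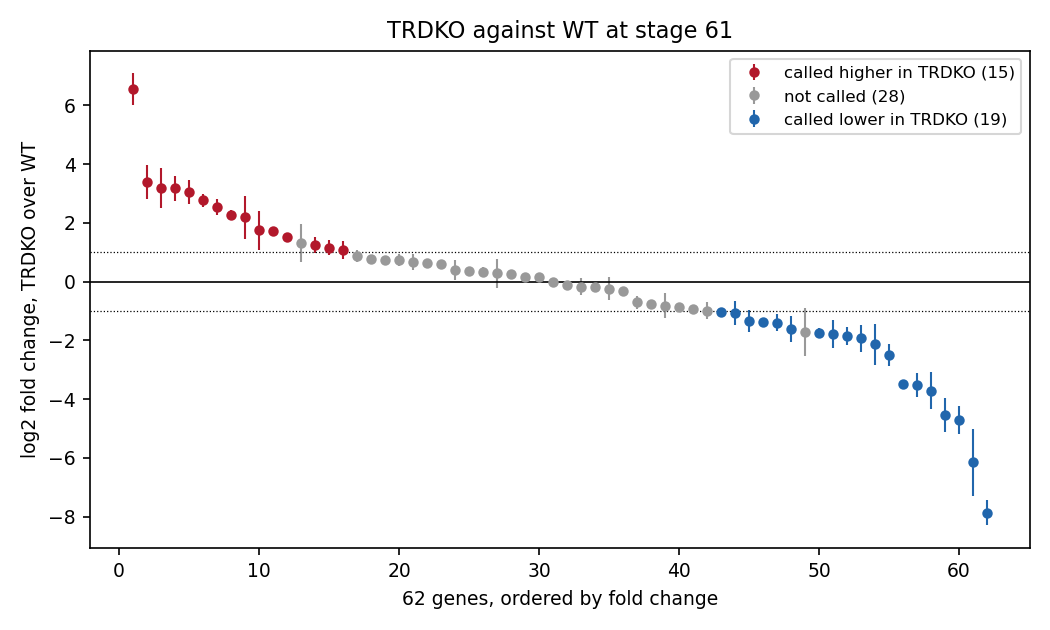
Log2 fold change of TRDKO over wild-type tadpoles at stage 61 for the 62 genes, ordered by size, with standard errors from edgeR's quasi-likelihood fit. Red points are the 15 genes called higher in TRDKO tadpoles, blue points the 19 called lower, grey points the 28 not called, and dotted lines mark a 2-fold change.

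The genes called higher and lower in TRDKO tadpoles at stage 61 were set beside each other at both stages. The 15 called higher stood at a median of 12.2% of the wild-type stage 54 level in TRDKO tadpoles at stage 61, against 1.39% in wild-type tadpoles at stage 61. At stage 54 their TRDKO level had been 18.1%. Between the TRDKO stages their median ratio was 0.578, with 6 of the 15 at 50% of the stage 54 level or less. By replicates 1 and 2 alone these values were 15.25% and 0.816, with 5 of the 15. The 19 genes called lower stood at a median of 1.28% in TRDKO tadpoles at stage 61, against 5.53% in wild-type tadpoles at stage 61. Their TRDKO level at stage 54 had been 13.0%, and between the TRDKO stages their median ratio was 0.106, with 18 of the 19 at 50% of the stage 54 level or less. By replicates 1 and 2 alone they were 14.8% and 0.0953, with 17 of the 19. The groups were formed by the stage 61 contrast, so their levels at that stage differ by construction. The ratio between the TRDKO stages uses the same TRDKO stage 61 level, so its difference between the groups is in part made by that choice. The genes called higher tended to lower abundance, with 3 of 15 at a wild-type stage 54 mean of 10000 or more and 6 under 1000, against 7 of 19 and 2 among the genes called lower, a difference that was not tested.

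The members are given by ID for the 2 largest rises and the 2 largest falls in this contrast. ENSXETG00000034198 had 1290, 1273 and 1232 normalised counts in TRDKO libraries at stage 61, against 10.3, 13.1 and 16.8 in wild-type libraries. At stage 54 it had 510, 540 and 1755 in TRDKO libraries, against 3886, 3799 and 3827 in wild-type libraries. In TRDKO tadpoles its stage 61 libraries thus lay between replicates 1 and 2 and replicate 3 of stage 54. At stage 61 it was 94.5-fold higher in TRDKO tadpoles (log2 fold change 6.56, standard error 0.53, FDR 8.6e-07, edgeR).

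ENSXETG00000004704 showed the same order of groups at a lower level. It had 318, 346 and 364 normalised counts in TRDKO libraries at stage 61, against 30.3, 35.1 and 30.0 in wild-type libraries. At stage 54 it had 79.4, 99.7 and 487 in TRDKO libraries, against 1209, 1157 and 1198 in wild-type libraries. The log2 fold change at stage 61 was 3.39 (standard error 0.59, FDR 0.00035, edgeR), or 10.8-fold. For both genes replicate 3 set the TRDKO stage 54 mean, being 3.34 and 5.44 times the mean of replicates 1 and 2. Against replicates 1 and 2 alone, the TRDKO level at stage 61 was 2.41 times higher in ENSXETG00000034198 and 3.83 times higher in ENSXETG00000004704, so that neither gene met the rule without replicate 3.

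ENSXETG00000021016 was among the abundant members, with normalised counts of 75064, 76860 and 79108 in the stage 54 libraries of wild type. In TRDKO libraries at stage 61 it had 10.02, 16.4 and 30.4 normalised counts, from 13, 15 and 31 reads, against 4243, 4295 and 4226 in wild-type libraries. The TRDKO libraries at stage 54, with 5947, 5831 and 2454, lay on both sides of the wild-type libraries at stage 61. At stage 61 the gene was 225-fold lower in TRDKO tadpoles (log2 fold change -7.86, standard error 0.43, FDR 3.5e-08, edgeR).

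ENSXETG00000030246 had 3, 0 and 0 reads in TRDKO libraries at stage 61, against 106, 138 and 94 in wild-type libraries, where its normalised counts were 64.3, 72.3 and 83.0. Set against the limit of 3 counts per library, it was at least 25.7-fold lower in TRDKO tadpoles (FDR 0.00058, edgeR). At stage 54 it had 257, 291 and 40.4 normalised counts in TRDKO libraries, against 1328, 1375 and 1387 in wild-type libraries. Replicate 3 was again apart, at 0.147 times the mean of replicates 1 and 2, and both this gene and ENSXETG00000021016 met the rule without it.

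**Figure D5:**
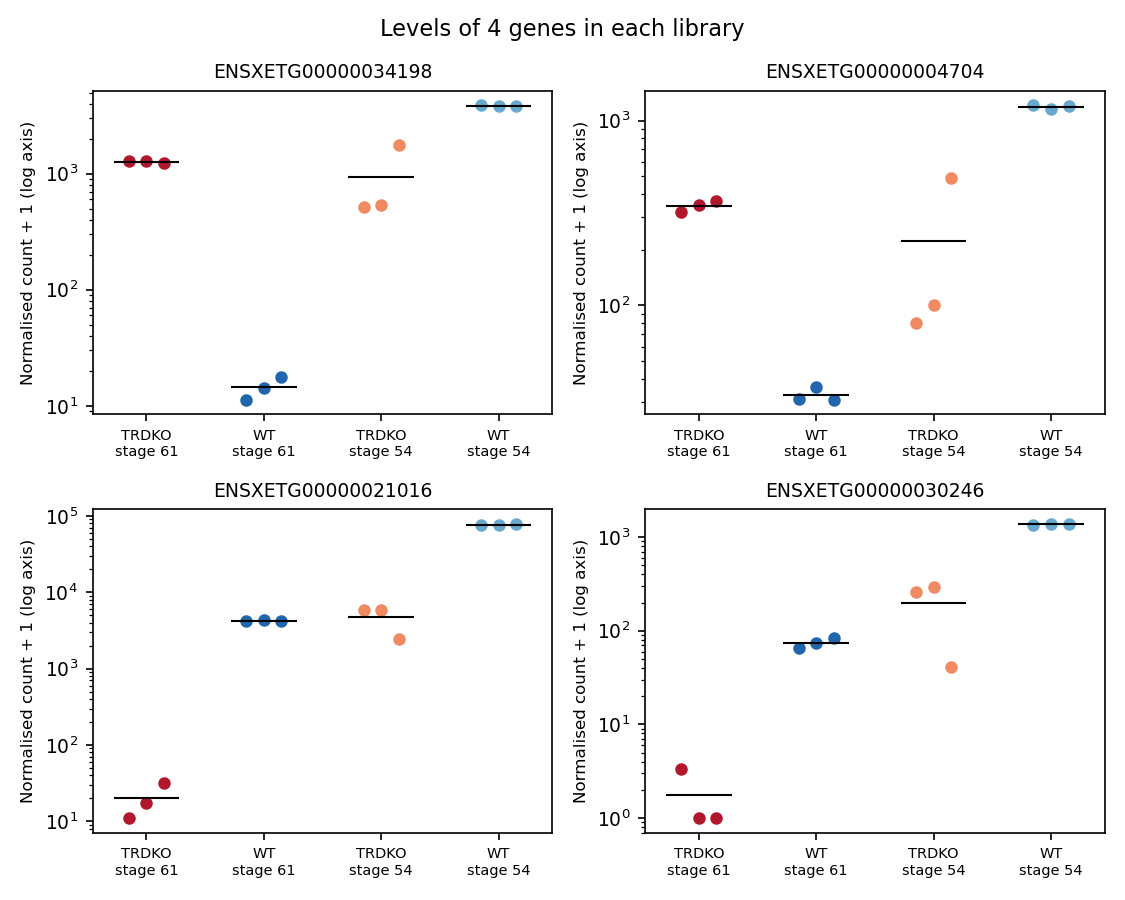
Normalised read counts plus 1, on a log axis, of the 4 genes given by ID in each of the 12 libraries, with the group mean as a line. In the upper 2 genes the wild-type libraries at stage 61 are the lowest, at 10.3 to 16.8 and 30.0 to 35.1, and in the lower 2 the TRDKO libraries at stage 61 are the lowest, at 30.4 or less.

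The members were set beside the other 400 genes that met both wild-type limits, of which 397 failed at the TRDKO stage 54 limit and 3 at the TRDKO stage 61 limit only. All 400 were tested. In these genes the median TRDKO level was 56.4% of wild type at stage 54 (55.7% by replicates 1 and 2 alone), a difference that the rule made. At stage 61 it was 20.6% of the wild-type stage 54 level, while in wild-type tadpoles at stage 61 it was 6.22%. Of the 400, 294 (73.5%) were higher and 17 (4.25%) were lower in TRDKO tadpoles at stage 61, with a median log2 fold change of 1.80, beside 15 (24.2%) higher and 19 (30.6%) lower among the 62 members. The rule kept the TRDKO level of each member at stage 61 under 2 times its TRDKO level at stage 54. That is below 50% of the wild-type level at stage 54, and lower still for most members, whose median TRDKO level at stage 54 was 16.3%. The 397 genes that failed at the TRDKO stage 54 limit had no such bound. The rule thus limits how high the members could be in this contrast, and the difference between the sets was not tested.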

How the data were processed

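RNA was extracted from whole intestine, and poly-A-selected libraries were prepared with a stranded kit. Per the submitters' processing notes the tools were STAR 2.6.1c for mapping and featureCounts 1.6.3 for counting. The authors deposited raw read counts per Ensembl gene, not normalised. The strand setting and the treatment of reads matching several genes are not given in the sources used here, so counts of overlapping genes and near-identical copies are uncertain.

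Size factors were the median of ratios over 12983 genes with reads in all 12 libraries. The 13954 genes kept by filterByExpr, all 62 members among them, were scaled by TMM and fitted in edgeR 4.0.16 (R 4.3.3) with a mean per genotype and stage. Genes were called at more than 2-fold and an FDR under 0.05, adjusted over all genes tested. Standard errors were derived from the F statistic. The procedure was tested on simulated data. Alternatives were DESeq2 1.42.0, other scalings, filters and limits, the 6 libraries of stage 61, a replicate block and each library left out. The members and the rules were chosen with earlier results of these data known. Genes were to be named as the 2 largest rises and 2 largest falls among called members without overlap of libraries. Planned gene lists by symbol were not run, since no ID matched a name. No sequences are shown for the same reason.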

Additional observations from a re-analysis of the deposited data

How the results depend on the processing

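The counts of members called at stage 61 changed little with the tool, the filter, RLE size factors or the libraries left out. They were 13 to 16 higher and 16 to 20 lower over the 12 fits without 1 library. Of all genes tested in these fits, 13.8% to 15.5% were higher and 17.5% to 20.7% lower. With no fold threshold 23 members were higher and 25 lower, beside 30.8% and 39.4% of all genes tested. Scaling by library size alone moved the median of all genes tested to -0.75, against -0.11 with TMM. There 9 members were higher and 26 lower, beside 6.78% and 39.0% of all genes, and the median of the members was -0.71, still close to that of all genes. Without 1 library the members' median lay between -0.074 and 0.18, the highest value without WT stage 61 replicate 3. It was 0.16, with 19 of 67 genes higher and 20 lower (14.9% and 20.7% of all genes), with the rule and the fit both without TRDKO stage 54 replicate 3, an alternative chosen after seeing the data. The sign of this median is thus not settled. The number of members was 60 to 67 without 1 library, 14 with library size alone, 116 with the limit W54/3 and 32 with W54/6. The 4 genes given by ID kept their direction and call in all 16 fits run for them. Their FDR depended strongly on TRDKO stage 54 replicate 3. For ENSXETG00000034198 the FDR at stage 61 (edgeR) was 8.6e-07 with that library and 6.5e-89 without it, at log2 fold changes of 6.56 and 6.57. For ENSXETG00000030246 the fitted log2 fold change ran from -9.28 to -5.66 and was lowest without TRDKO stage 61 replicate 1, which holds its 3 reads.

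Same-numbered libraries of different groups did not deviate together (correlations of -0.03 to 0.04 over 18 pairs), so the numbers do not pair the samples. With the replicate number as a block, 15 members were higher and 19 lower at stage 61, with a median of -0.08, so the block changed no call count.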

Other observations

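TRDKO stage 54 replicate 3 was compared with the level that each member had in TRDKO tadpoles at stage 61, a comparison chosen after the values were seen. Of the 23 members in which replicate 3 was more than 1.5-fold below replicates 1 and 2, 21 also had a TRDKO stage 61 mean below replicates 1 and 2. Of the 14 members in which it was more than 1.5-fold above them, 5 had a TRDKO stage 61 mean above replicates 1 and 2 and 9 had one below. In ENSXETG00000034198 and ENSXETG00000004704 replicate 3 and the TRDKO stage 61 libraries were all above replicates 1 and 2, and in ENSXETG00000021016 and ENSXETG00000030246 they were all below. In 4 members, ENSXETG00000034198 and ENSXETG00000004704 among them, the TRDKO stage 61 mean was at least 2 times that of replicates 1 and 2. These 4 could meet the rule only if replicate 3 was high, so the choice of members fixed the outcome for 4 of the 5 that were above in both. Over all 62 members the TRDKO stage 61 mean was above replicates 1 and 2 in only 8. A mean below them was thus the common outcome whatever replicate 3 showed, and nothing about replicate 3 is read from these counts.

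With no limit on the wild-type mean at stage 54, 96 genes would have met the rule, and 103 genes met every limit except that on the wild-type mean at stage 61. These 103 genes kept more of their level in wild-type tadpoles at stage 61 than the rule allowed.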
